A study of Mus musculus with 768 samples.

Results

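High endothelial venules (HEVs) are the post-capillary venules through which lymphocytes enter lymph nodes from the blood. Their endothelial cells carry sulfated sugars, bound by the antibody MECA-79, that catch lymphocytes through L-selectin, and chemokines and adhesion receptors then arrest the caught cells. Vcam1 encodes one such receptor, an immunoglobulin-family protein that binds integrins on lymphocytes and monocytes and that endothelium switches on through NF-kB when it meets inflammatory cytokines. Vcam1-positive and Vcam1-negative HEV cells of mouse lymph node were compared, as 79 cells with Vcam1 at 10 CPM or more (reads scaled to the total of the cell or class) and 62 cells with 0 Vcam1 counts. They were chosen from the LN_HEV libraries, which fill 2 of the plates that hold the 768 single-cell libraries of the series, 96 to a plate. Kept cells had at least 50000 counts, at least 1000 genes, at most 30% of counts in mitochondrial genes and at least 2 of the 5 genes Pecam1, Cdh5, Tie1, Egfl7 and Eng at 10 CPM or more. Among the kept cells, 65 on pool1 and 82 on pool2, 6 held Vcam1 above 0 counts and under 10 CPM and belonged to neither class. Vcam1 chose the classes, so its own values are a description only, and it was left out of every comparison.

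The series profiled single endothelial cells of mouse lymph node and of tumours with Smart-seq2, a full-length method without molecular identifiers. The lymph node cells were sorted as CD45-negative, CD31-positive and MECA-79-positive into the 96-well plates pool1 and pool2. No genotype, strain, age or treatment is labelled for them, and no label names an animal. On pool1 there were 30 Vcam1-positive and 32 Vcam1-negative cells, and on pool2 there were 49 and 30. Cells of a plate are not replicates, so each class was 1 sample per plate. The classes were compared within each plate, no test was made, and no p-value is given. Intervals are exact 95% intervals. Those of ratios take each read as independent, which reads copied by PCR are not, so they are too narrow even for counting error. Those of shares of cells take each cell of a plate as an independent draw. Neither kind covers the spread between animals.

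Some libraries stood apart. The rule leaves out 11 pool1 libraries that held nearly all counts of tumour HEV libraries. Another 3 pool1 libraries that the rule keeps also held at least the count of a tumour HEV library in 96.0% to 98.6% of its features, against at most 67.7% for any other kept library. The held libraries amounted to 66.1%, 13.7% and 6.97% of their totals. All 3 were Vcam1-negative with 0 Vcam1 counts, so 29 pool1 Vcam1-negative cells remain without them. Of the 15 pool1 wells and 9 pool2 wells under 50000 counts, none was used. The median total was 1035414 counts in Vcam1-positive and 967532 in Vcam1-negative cells of pool1, and 1131625 and 1046761 on pool2. At 100000 counts per cell, Vcam1-positive cells still held more genes, with medians of 3182 against 2986 on pool1 and 3667 against 3363 on pool2.

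The labelled cell type was checked against its markers. The 8 high endothelial markers summed to 96003 CPM in Vcam1-positive and 84422 CPM in Vcam1-negative cells of pool1, and to 99102 and 86627 CPM on pool2. This sum was above 10 CPM in every cell of both classes. Pan-endothelial genes were used to keep cells and are no check. Epithelial markers were at 0 throughout.

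Vcam1 (chromosome 3 from 116109949 to 116129688, minus strand, GRCm38) was found at 10 CPM or more in 46.2% of kept cells on pool1 (interval 33.7% to 59.0%) and in 59.8% on pool2 (48.3% to 70.4%). These intervals overlap. In Vcam1-positive cells it ran from 14.9 CPM to 703 CPM on pool1, with a median of 148.985 CPM, and from 31.0 CPM to 889 CPM on pool2, with a median of 236.4 CPM. The highest values under the cut were 7.98 CPM on pool1 and 6.35 CPM on pool2, so few cells lay near it. In 2 of 32 Vcam1-negative cells on pool1 and 1 of 30 on pool2, the depth was so low that 3 counts would already exceed 10 CPM.

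**Figure D1:**
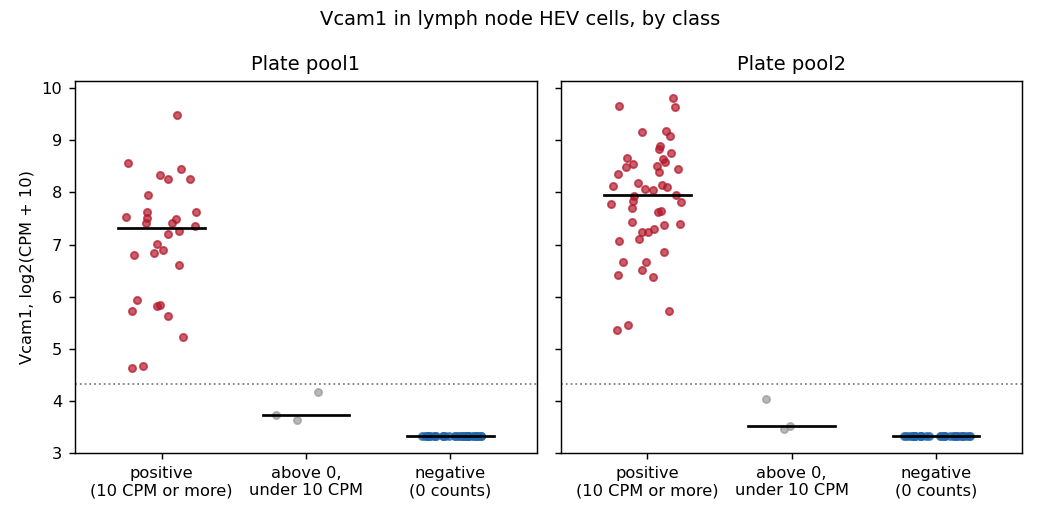
Vcam1 as log2(CPM + 10) in each lymph node HEV cell, by class and plate, with black lines at the class medians and a dotted line at 10 CPM. Most Vcam1-positive cells sit far above the cut, and 3 cells per plate lie between it and 0.

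Within each plate many features differed between the classes, and few of them differed the same way on both plates. For each class and plate the counts of all cells were added, and 5680 features reached 20 CPM in at least 1 class on each plate. Of these, 76 (1.34%) were at least 2-fold higher in Vcam1-positive cells on both plates and 66 (1.16%) at least 2-fold lower. On pool1 alone 593 (10.4%) were at least 2-fold higher and 619 (10.9%) lower, and on pool2 alone 460 (8.1%) and 330 (5.81%). The 76 shared higher features were 12.8% of those higher on pool1 and 16.5% of those on pool2. Another 80 features were at least 2-fold higher on pool1 and at least 2-fold lower on pool2, and 86 went the other way. Across features the log2 ratios of the plates had a Pearson coefficient of 0.0048 and a Spearman coefficient of -0.00099, where features are not independent replicates. Among the 768 features at 200 CPM or more in any class of either plate the coefficients were 0.107 and 0.0836. Of these, 0 features passed 2-fold on both plates either way. The median log2 ratio over all features was -0.01 on pool1 and -0.02 on pool2.

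**Figure D2:**
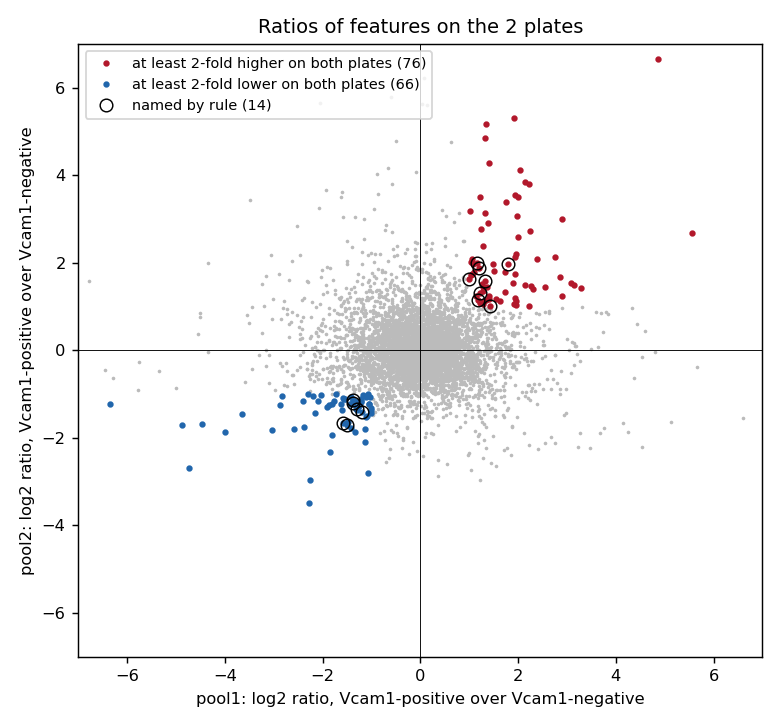
Log2 ratio of summed CPM, Vcam1-positive over Vcam1-negative, on pool1 (x) and pool2 (y), one point per measured feature, with 19 features beyond the axes at 7. The cloud is round, with 76 features in the upper right and 66 in the lower left past 2-fold, and the 14 genes named by rule are circled.

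The 76 and 66 features were mostly found in a minority of cells. The median feature had a count in 26.5% of Vcam1-positive cells, for those higher there, and in 20% of Vcam1-negative cells, for those lower in Vcam1-positive cells, on the plate where it was found less often. In 5 of the 76 and 15 of the 66, a single cell held 50% or more of the counts of the higher class on at least 1 plate. With cells thinned to 100000 counts, the share of cells with a count went the same way on both plates for 72 of the 76 and 49 of the 66. These features were chosen by their summed ratios in the same cells, so this agreement is partly set by the choice. The same count over all features was not made.

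The named genes were fixed by rule: at least 50 CPM and a count in at least 30% of cells of the higher class, a 2-fold ratio and a thinned share the same way on both plates. Only 8 genes were higher in Vcam1-positive cells by this rule, and 6 were lower. Of the 14, 1 (Ephb4, of venous endothelium) belongs to a pathway list. Under 11 other ways of choosing or scaling the cells, 3 of the 14 (Ccz1, Ube2e1 and Slu7) stayed past 2-fold on both plates throughout and 11 fell short at least once. Rpf1 did so under 6 of them, Dpf2, Serpina3n and Birc6 under 4, and Zfp638, Ldlrad3 and Nqo2 under 3.

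Ccz1, which with Mon1 activates the endosomal switch protein Rab7, had the largest consistent ratio. It summed to 56.5 CPM in Vcam1-positive and 16.2 CPM in Vcam1-negative cells of pool1, 3.49-fold higher (interval 3.14 to 3.88). On pool2 it summed to 64.9 and 16.6 CPM, 3.90-fold higher (3.55 to 4.29). Among single cells it ran from 0 to 295.2 CPM with a median of 1.68 in Vcam1-positive cells of pool1, against 0 to 202.2 CPM with a median of 0 in Vcam1-negative cells. On pool2 it ran from 0 to 383.9 CPM with a median of 4.00, against 0 to 154.2 CPM with a median of 0. The classes overlapped, and more Vcam1-positive cells held the transcript, 15 of 30 against 8 of 32 on pool1 and 28 of 49 against 8 of 30 on pool2.

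Serpina3n, a secreted protease inhibitor of the acute phase response, summed to 105.5 CPM in Vcam1-positive and 47.4 CPM in Vcam1-negative cells of pool1, and to 122.2 and 30.4 CPM on pool2. Part of the pool1 value came from 1 cell that also held fibroblast and mural genes. Without it the pool1 level in Vcam1-positive cells was 68.2 CPM and the log2 ratio 0.53 in place of 1.16. Similar paralogs adjoin Serpina3n, so its counts are uncertain. Pbxip1, a binding partner of PBX transcription factors, summed to 55.7 CPM in Vcam1-positive and 22.3 CPM in Vcam1-negative cells of pool1, and to 64.4 and 21.4 CPM on pool2. Dpf2, a subunit of the BAF chromatin remodelling complex, summed to 50.8 and 21.8 CPM on pool1 and to 63.9 and 25.7 CPM on pool2. Each was absent from more than 50% of the cells in both classes.

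Zfp638, a nucleic acid-binding zinc finger protein, summed to 90.4 CPM in Vcam1-positive and 39.5 CPM in Vcam1-negative cells of pool1, and to 68.5 and 18.6 CPM on pool2. A count was found in 19 of 30 against 11 of 32 cells on pool1, and in 18 of 49 against 7 of 30 on pool2. Ldlrad3, a membrane protein of the LDL receptor class A type, was found in 15 of 30 against 8 of 32 cells on pool1 and in 19 of 49 against 7 of 30 on pool2. For both genes the share of cells pointed the same way as the summed level, which the naming rule required of the thinned shares. Rpf1, a ribosome assembly factor, was 2.00-fold higher on pool1 (interval 1.84 to 2.19), at the threshold, and 3.10-fold higher on pool2 (2.82 to 3.42). Birc6, a giant ubiquitin-conjugating inhibitor of apoptosis, was the most widely found, with a count in 47 of 49 Vcam1-positive and 26 of 30 Vcam1-negative cells of pool2. It summed there to 157.7 and 78.2 CPM, 2.02-fold higher (1.93 to 2.11).

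Ephb4, the ephrin-B2 receptor of venous endothelium (chromosome 5 from 137350109 to 137378669, plus strand), was the 1 gene of the pathway lists that passed 2-fold on both plates. It summed to 30.4 CPM in Vcam1-positive and 79.1 CPM in Vcam1-negative cells of pool1, and to 56.0 and 123.2 CPM on pool2. The Vcam1-positive class was 2.602-fold lower on pool1 and 2.20-fold lower on pool2. The median Vcam1-positive cell was at 0 on both plates, while the median Vcam1-negative cell was at 16.7 CPM on pool1 and 61.1 CPM on pool2. A count was found in 12 of 30 against 20 of 32 cells on pool1 and in 21 of 49 against 18 of 30 on pool2. The highest cells reached 303.4 CPM in Vcam1-positive and 255.1 CPM in Vcam1-negative cells of pool1, and 465 and 693 CPM on pool2, so the classes overlapped throughout.

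The other 5 lower genes were Ube2e1, a ubiquitin-conjugating enzyme, Tor1b, a torsin ATPase of the endoplasmic reticulum, Rnf139, a ubiquitin ligase of the same membrane, Slu7, a splicing factor, and Nqo2, a quinone reductase. Ube2e1 summed to 19.3 CPM in Vcam1-positive and 57.8 CPM in Vcam1-negative cells of pool1, and to 31.1 and 98.3 CPM on pool2, where the log2 ratio was -1.66, and -2.25 without the cells marked by other cell types. Tor1b summed to 33.5 and 94.6 CPM on pool1 and to 34.6 and 112.6 CPM on pool2. Slu7 was found in 5 of 30 against 13 of 32 cells on pool1 and in 13 of 49 against 12 of 30 on pool2. These genes were low in both classes, with medians of 0 CPM per cell on each plate.

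**Figure D3:**
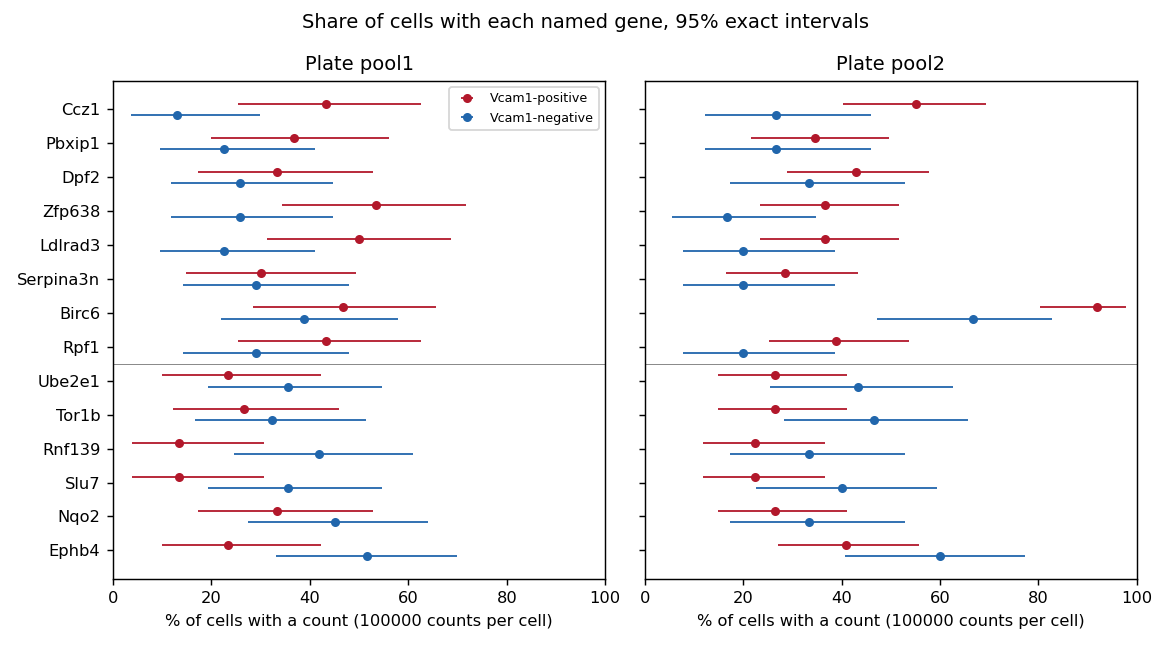
Percent of cells with a count of each named gene, at 100000 counts per cell, in Vcam1-positive (red) and Vcam1-negative (blue) cells of each plate, with exact 95% intervals. Genes above the line were higher and those under it lower in Vcam1-positive cells, and most pairs of intervals overlap.

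Larger ratios belonged to rarer transcripts, and the genes of this paragraph were picked after their values were seen. Map3k8, the kinase Tpl2 of inflammatory signalling, summed to 47.3 CPM in Vcam1-positive and 8.05 CPM in Vcam1-negative cells of pool1, and to 67.5 and 24.8 CPM on pool2. It was found in 13 of 30 against 4 of 32 cells on pool1 and in 17 of 49 against 4 of 30 on pool2. Its level in Vcam1-positive cells of pool1 fell just short of the rule's minimum. Sele, E-selectin, did not reach 20 CPM on pool1, with 13.8 CPM in Vcam1-positive and 1.88 CPM in Vcam1-negative cells, and stood at 25.2 and 3.57 CPM on pool2. Only 6 of 30 against 1 of 32 cells held it on pool1, and 5 of 49 against 2 of 30 on pool2, and 1 cell held 67.1% of its counts in Vcam1-positive cells of pool2. Rab31, a small GTPase of vesicle traffic, went the other way, at 5.99 and 29.2 CPM on pool1 and 3.76 and 42.3 CPM on pool2.

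Some well-measured genes had smaller ratios that went the same way on both plates, although over the 768 features given above the plates were hardly related. The features here reached 200 CPM in at least 1 class on each plate. Ribosomal, mitochondrial, haemoglobin and immunoglobulin genes and unnamed gene models were left out. Those with the largest smaller-plate ratio are given, an order chosen after the data were seen, so their common direction is set by the choice. Leading them was Ier3, a stress-induced early response gene and NF-kB target. It had a median of 320 CPM in Vcam1-positive and 148.7 CPM in Vcam1-negative cells of pool1, and of 336.7 and 206.3 CPM on pool2. Its summed level was 2.18-fold higher on pool1 (interval 2.11 to 2.24) and 1.52-fold higher on pool2 (1.48 to 1.56). It was found in 27 of 30 against 23 of 32 cells on pool1 and in 45 of 49 against 25 of 30 on pool2. Tubb4b, a beta-tubulin, was 1.73-fold higher on pool1 and 1.52-fold on pool2. Adgrf5, an adhesion G protein-coupled receptor of endothelium, was 1.79-fold higher on pool1, with medians of 349.9 and 191.3 CPM, and 1.39-fold on pool2, with medians of 383.6 and 183.9 CPM.

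On the lower side, Cnbp, a nucleic acid-binding zinc finger protein, led. Its ratio was 0.597 on pool1 (interval 0.582 to 0.613) and 0.698 on pool2 (0.687 to 0.710). Medians per cell were 308.3 CPM in Vcam1-positive and 491 CPM in Vcam1-negative cells of pool1, and 537 and 749.5 CPM on pool2. Wdr1, which helps cofilin take apart actin filaments, had ratios of 0.669 and 0.718 on pool1 and pool2. Pde2a, a phosphodiesterase of cyclic nucleotides, had ratios of 0.535 on pool1 and 0.718 on pool2. Vcp, the ATPase that extracts proteins from the endoplasmic reticulum membrane, had ratios of 0.747 and 0.728 on pool1 and pool2. The counting intervals of these ratios exclude 1, but the genes were picked for their large ratios in these same cells. The intervals also leave out the spread between cells, and the spread between animals is unknown.

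Genes were also read by 28 pathway lists. Of their measured members, 0 were at least 2-fold higher in Vcam1-positive cells on both plates, beside 1.34% of all features. Only 1, Ephb4, was at least 2-fold lower on both, beside 1.16% of all features. Directions are therefore counted at any size, where 24.3% of all features were higher on both plates and 26.7% lower on both.

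Immediate early genes, the transcription factors and regulators that cells switch on within minutes of a stimulus, were more often higher. Of 12 measured genes of the immediate early and heat shock list, 7 were higher in Vcam1-positive cells on both plates and 1, Hspa8, was lower, with log2 ratios of -0.01 on pool1 and -0.0041 on pool2. Without the cells marked by other cell types Hspa8 stood at 0.01 on pool2. The list had a median log2 ratio of 0.20 on pool1 and 0.49 on pool2. Junb, an AP-1 subunit, summed to 591 CPM in Vcam1-positive and 363.7 CPM in Vcam1-negative cells of pool1, and to 1114 and 760.3 CPM on pool2. It was 1.62-fold higher on pool1 and 1.47-fold on pool2. Medians per cell were 479 against 404 CPM on pool1 and 1126 against 707 CPM on pool2. Cells without a count made up more of the Vcam1-negative class, since 29 of 30 against 27 of 32 cells held Junb on pool1 and 47 of 49 against 25 of 30 on pool2.

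Fos, the partner of Jun in AP-1, summed to 1605 CPM in Vcam1-positive and 1097 CPM in Vcam1-negative cells of pool1, and to 1944 and 1421 CPM on pool2. Ier2 summed to 637 and 407 CPM on pool1 and to 908 and 627 CPM on pool2. Jun, Egr1, Fosb and the heat shock co-chaperone Dnajb1 were the other members higher on both plates, by log2 ratios of 0.15 to 1.66. Atf3 and Nr4a1 went opposite ways, lower on pool1 and higher on pool2. With the Vcam1-positive class restricted to cells at 50 CPM or more, 11 of 12 measured members were higher on both plates. Without the cells marked by other cell types (3 or more markers of a contaminant list) it was 8 of 12, and without the 3 further libraries that hold tumour counts 7 of 12.

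Of the factors known to act on the Vcam1 promoter, 11 were measured, 5 were higher on both plates and 1, Irf2, was lower. The median log2 ratio was 0.56 on pool1 and 0.20 on pool2. Irf1, an interferon-induced activator that works with NF-kB at this promoter, summed to 147.8 CPM in Vcam1-positive and 89.2 CPM in Vcam1-negative cells of pool1, and to 158.4 and 110.1 CPM on pool2. It was found in 23 of 30 against 18 of 32 cells on pool1 and in 37 of 49 against 17 of 30 on pool2. Sp1, a general activator of GC-rich promoters, summed to 57.6 and 11.2 CPM on pool1 and to 43.1 and 23.8 CPM on pool2. Klf6, a zinc finger factor, had log2 ratios of 0.56 on pool1 and 0.75 on pool2. Ets1, an endothelial factor, had 0.68 and 0.41, and Rela, the NF-kB subunit p65, had 0.24 and 0.10. Nfkb1, which encodes the partner subunit p50, went opposite ways, with log2 ratios of -1.04 on pool1 and 1.48 on pool2. Klf2, a shear-induced repressor of endothelial inflammation, did so too, at 1.30 and -0.19.

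NF-kB feedback and target genes showed no common direction. Of 14 measured, 3 (Nfkbia, Icam1 and Ier3) were higher on both plates and 2 (Nfkbib and Tnip1) were lower. Nfkbia, the inhibitor that NF-kB itself induces, summed to 839 CPM in Vcam1-positive and 761.9 CPM in Vcam1-negative cells of pool1, and to 1179 and 844 CPM on pool2. Tnfaip3, the feedback enzyme A20, had log2 ratios of -0.53 on pool1 and 0.85 on pool2. Relb, the non-canonical subunit downstream of the lymphotoxin beta receptor, had -0.17 and 0.94. Ltbr, which encodes that receptor and maintains HEVs, had -0.28 and 0.71. Of the receptors for cytokines that induce Vcam1, 10 were measured, and 1 was higher on both plates and 1 lower. The higher one, the tumour necrosis factor receptor Tnfrsf1b, stood at 32.9 and 19.5 CPM on pool1 and 45.1 and 23.7 CPM on pool2. Without the pool1 cell that held fibroblast and mural genes, the pool1 log2 ratio of Tnfrsf1b was 0.44 in place of 0.75. The lower one, Il4ra, had log2 ratios of -1.38 on pool1 and -0.05 on pool2.

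**Figure D4:**
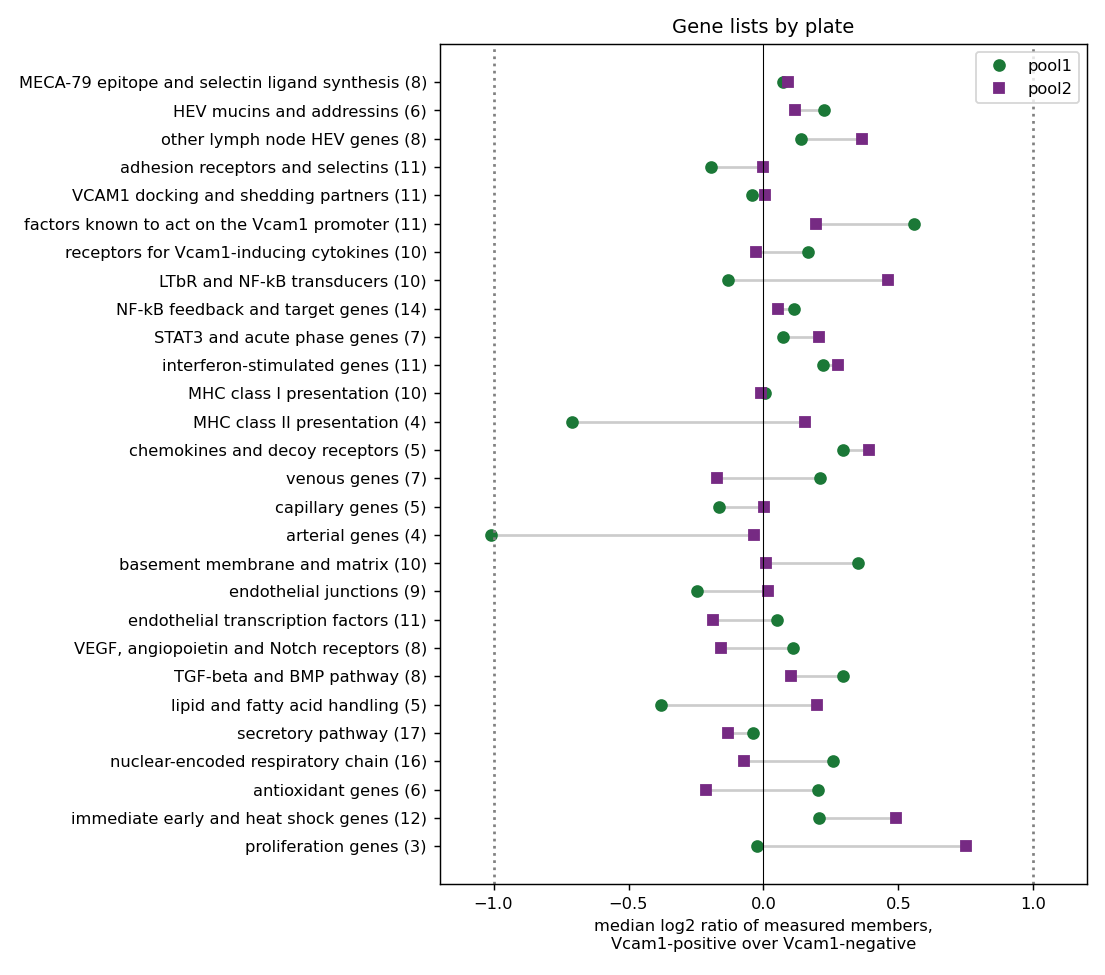
Median log2 ratio, Vcam1-positive over Vcam1-negative, of the measured members of each list on pool1 (circles) and pool2 (squares), with the number measured in brackets and dotted lines at 2-fold. Medians lie within 0.76 of 0 except for arterial genes on pool1, and many pairs straddle 0.

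HEV genes were mixed between lists. Of 8 measured genes in the list of other lymph node HEV genes, 6 were higher on both plates and 0 lower, with medians of 0.14 on pool1 and 0.36 on pool2. With all cells under 10 CPM as the comparison, 4 of 8 were higher on both plates, beside 24.5% of all features. With the 11 left-out libraries 4 of 8 were higher as well, beside 29.9% of all features. Ch25h, the enzyme that makes an oxysterol guidance precursor, summed to 177.1 CPM in Vcam1-positive and 104.97 CPM in Vcam1-negative cells of pool1, and to 173.4 and 92.7 CPM on pool2. Ccl21a, the chemokine that arrests T cells, summed to 16339 and 13330 CPM on pool1 and to 24049 and 17053 CPM on pool2, although near-identical copies make its counts uncertain. It was found in 27 of 30 against 25 of 32 cells on pool1 and in 45 of 49 against 24 of 30 on pool2. Apoe, Lrg1, Sphk1 and Spns2, the sphingosine 1-phosphate exporter, were the others, with log2 ratios of 0.09 to 0.56.

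The mucin that dominates these cells differed less. Glycam1, the secreted sialomucin ligand of L-selectin, summed to 72237 CPM in Vcam1-positive and 63251 CPM in Vcam1-negative cells of pool1, and to 62170 and 58037 CPM on pool2. Medians per cell were 73326 and 62233 CPM on pool1 and 58954 and 47921 CPM on pool2. Of 6 measured mucins and addressins, 4 were higher on both plates and 1 lower. The lower one was Cd34, another mucin scaffold, with log2 ratios of -0.22 and -0.41. Chst4, the sulfotransferase of the MECA-79 epitope, summed to 846 and 717 CPM on pool1 and to 1413 and 1258 CPM on pool2, and medians per cell on pool2 were 1178 and 1195 CPM. Chst2, the second sulfotransferase, had log2 ratios of 0.31 and 0.70. Fut7, which fucosylates the L-selectin ligand, had -0.22 and 0.29, and St3gal6, a sialyltransferase, -0.21 and -0.14. Of the 8 measured members of this synthesis list 4 were higher on both plates and 2 lower.

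Among adhesion receptors, Icam1, the ligand of the leukocyte integrin LFA-1 and the nearest counterpart of Vcam1, was higher on both plates. It summed to 395 CPM in Vcam1-positive and 343.1 CPM in Vcam1-negative cells of pool1, and to 558 and 455 CPM on pool2. Cells ranged from 0 to 1619 CPM against 0 to 1122 CPM on pool1, and from 0 to 1528 CPM against 0 to 1767 CPM on pool2. Icam1 was found in 27 of 30 against 28 of 32 cells on pool1 and in 45 of 49 against 25 of 30 on pool2, so most cells of both classes held it. Mcam, a junctional adhesion molecule, was lower, at 13.1 and 63.6 CPM on pool1 and 55.1 and 83.3 CPM on pool2. Selp, P-selectin, had log2 ratios of 0.25 and -0.34. Of 11 measured members of the list, 1 was higher on both plates and 4 lower.

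**Figure D5:**
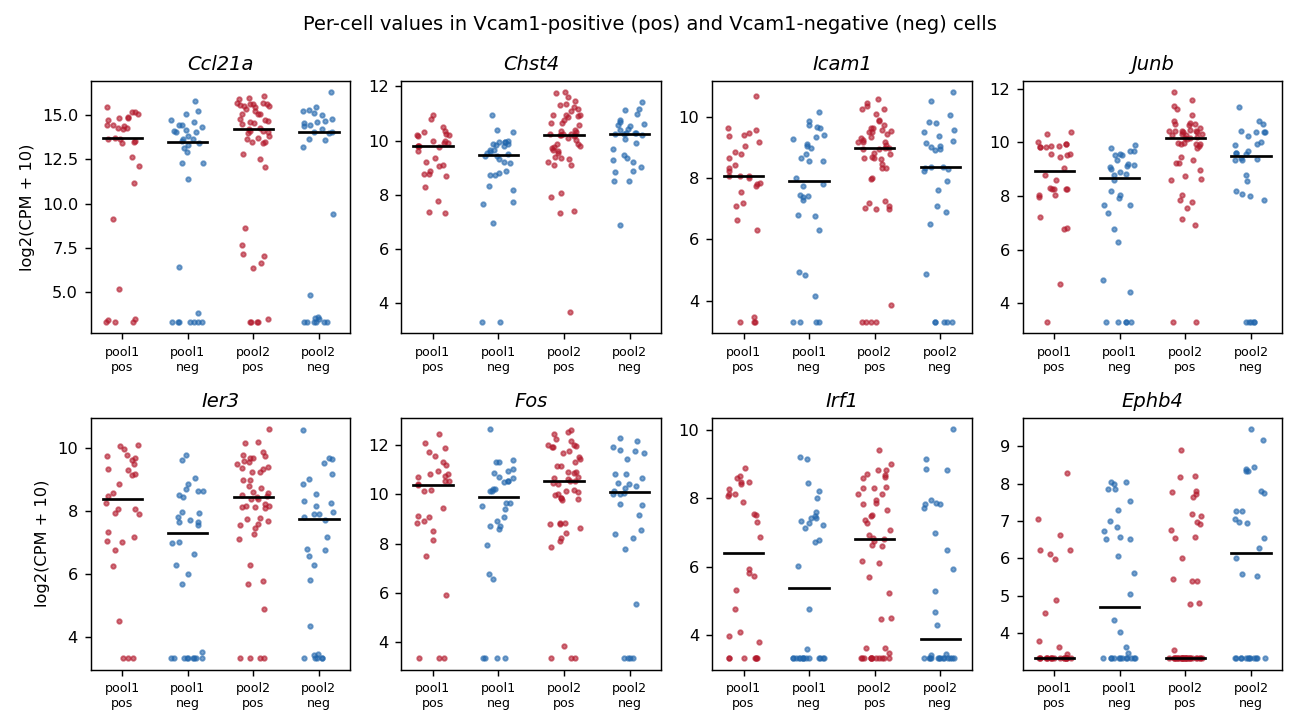
Values per cell as log2(CPM + 10) for 8 genes of the lists, in Vcam1-positive (pos) and Vcam1-negative (neg) cells of each plate, with black lines at medians and cells without a count at the bottom. The classes overlap for every gene, and Ephb4 is the gene whose median is higher in Vcam1-negative cells on both plates.

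VCAM1 associates with ERM proteins and tetraspanins and is shed by the protease ADAM17. Of 11 measured genes for such partners, 3 were higher on both plates and 3 lower, and the medians were -0.04 on pool1 and 0.01 on pool2. Adam17 differed on pool1, at 6.16 CPM in Vcam1-positive and 61.1 CPM in Vcam1-negative cells, and hardly on pool2, at 50.7 and 54.3 CPM. Without the pool1 cell that held fibroblast and mural genes, its pool1 level in Vcam1-positive cells was 2.18 CPM and the log2 ratio -4.81 in place of -3.31. Moesin (Msn) and the tetraspanin gene Cd81 had log2 ratios of 0.03 and -0.20 on pool1 and of 0.12 and -0.33 on pool2. Without the 3 further libraries that hold tumour counts Msn stood at -0.06 on pool1.

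Of 17 measured genes of the secretory pathway, 7 were lower on both plates and 2, Pdia3 and Pdia6, higher, with medians of -0.04 and -0.13. With the 11 left-out libraries 3 were higher and 1 lower, where 29.9% of all features were higher on both plates and 19.4% lower. Pdia4, a disulfide isomerase of the endoplasmic reticulum, summed to 78.0 CPM in Vcam1-positive and 138.6 CPM in Vcam1-negative cells of pool1, and to 116.3 and 253.2 CPM on pool2. Cldn5, the main claudin of endothelial tight junctions, summed to 131.95 and 171.9 CPM on pool1 and to 164.1 and 326.2 CPM on pool2. It was found in 10 of 30 against 17 of 32 cells on pool1 and in 26 of 49 against 18 of 30 on pool2. Of 4 measured arterial genes, 1, the Notch ligand Dll4, was lower on both plates, while the connexin Gja4 went opposite ways at -1.88 and 0.97. Without the pool1 cell that held fibroblast and mural genes, Dll4 on pool1 stood at -1.11 in place of -0.45 and Gja4 at -2.78 in place of -1.88, and without all cells marked by other cell types Gja4 stood at 0.13 on pool2. Of 7 measured venous genes, 1 (Nrp2) was higher and 1 (Ephb4) lower. Among 10 measured matrix genes, 5 were higher on both plates and 2 lower, and Lamb2, a laminin chain, stood at 114.3 and 43.8 CPM on pool1 and 104.1 and 72.1 CPM on pool2.

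Interferon and antigen presentation genes were mixed, and the interferon count shifted with the setting. Of 11 measured interferon-stimulated genes, 3 (Irf1, Igtp and Bst2) were higher on both plates and 2 (Iigp1 and Gbp3) lower. Igtp had log2 ratios of 0.53 on pool1 and 1.45 on pool2. Thinned cells gave 5 of 10 higher and 0 lower, and leaving out cells marked by other cell types 5 of 11 and 1. With the 11 left-out libraries 8 of 13 were higher and 0 lower, beside 29.9% of all features higher. Cells in the shared range of totals gave 3 of 10 higher and 2 lower. Bst2, the membrane tether tetherin, summed to 42.5 CPM in Vcam1-positive and 35.2 CPM in Vcam1-negative cells of pool1, and to 74.9 and 41.3 CPM on pool2. Iigp1, an interferon-inducible GTPase, went the other way, with log2 ratios of -1.84 and -0.06, and without the marked cells it stood at 0.18 on pool2. Of 10 measured MHC class I genes, 2 were higher on both plates and 3 lower, and B2m, the invariant light chain, had log2 ratios of 0.03 and 0.0017. Of 4 measured MHC class II genes, H2-Aa was higher on both plates and Cd74, the invariant chain, lower, at 625 and 803 CPM on pool1 and 1250.3 and 1329.8 CPM on pool2. Without the cells marked by other cell types H2-Aa had a log2 ratio of -0.15 on pool2, and 0 of 4 were higher on both plates. Of 7 measured STAT3 and acute phase genes, 3 (Lrg1, Cebpd and Osmr) were higher on both plates and 0 lower, although Cebpd stood at -0.04 on pool1 without the marked cells. Among 10 transducers of the lymphotoxin beta receptor and NF-kB, 2 were higher and 2 lower. Of 5 measured chemokines and decoy receptors, Ccl21a and Cxcl12 were higher on both plates, and Ackr1, the decoy receptor of venules, had log2 ratios of -0.16 and 0.39.

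The endothelial programme was likewise mixed. Of 11 measured endothelial transcription factors, 2 were higher on both plates and 3 lower, and Sox18 had log2 ratios of 0.05 and 0.12, with -0.09 on pool1 without the marked cells. Of 9 measured junction genes, 2 were higher and 3 lower, and Cdh5, VE-cadherin, had log2 ratios of -0.11 and -0.15. Of 8 measured receptors and ligands of the VEGF, angiopoietin and Notch pathways, 3 were higher on both plates and 1 lower. That one was Flt1, a VEGF receptor, with log2 ratios of -0.24 and -0.69. In the TGF-beta and BMP pathway 2 of 8 measured genes were higher on both plates and 1 lower. Id1 and Id2, related targets of BMP signalling, stood on opposite sides, with log2 ratios of 0.58 and 0.80 for Id1 and of -1.14 and -0.22 for Id2. Of 5 measured capillary genes, 0 went the same way on both plates. Lipid handling genes numbered 5, with 2 higher and 0 lower, respiratory chain genes 16, with 6 higher and 3 lower, and antioxidant genes 6, with 1 each way. Of 3 measured proliferation genes, 1, the replication clamp Pcna, was higher on both plates, by log2 ratios of 0.31 and 0.34.

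Markers of other cells were not spread evenly between the classes, and their part in the results was not tested except where a value without the marked cells is given. The 6 mural markers were at 0 in Vcam1-negative cells of both plates. In Vcam1-positive cells they summed to 26.3 CPM on pool1 and 8.69 CPM on pool2, in 3 of 30 and 3 of 49 cells at 10 CPM or more. Fibroblastic markers summed to 186.7 CPM in Vcam1-positive and 7.68 CPM in Vcam1-negative cells of pool1, and to 4.64 and 6.63 CPM on pool2. A single pool1 Vcam1-positive cell held 6 of the 8 fibroblastic and 3 of the 6 mural markers. It also held most of Cxcl12, a stromal chemokine, which stood at 146.7 CPM in Vcam1-positive and 18.4 CPM in Vcam1-negative cells of pool1, and at 19.4 CPM in the Vcam1-positive cells without that cell.

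Leukocyte markers summed to 34.9 CPM in Vcam1-positive and 12.7 CPM in Vcam1-negative cells of pool1, and to 70.1 and 49.2 CPM on pool2. B cell markers stood at 63.5 CPM in Vcam1-positive and 0.0333 CPM in Vcam1-negative cells of pool2, and 1 cell reached 2532 CPM. T cell markers summed to 45.6 and 21.1 CPM on pool1 and to 19.2 and 29.6 CPM on pool2. Lymphatic markers summed to 12.7 CPM in either class of pool1 and to 9.81 and 21.9 CPM on pool2. Erythroid and platelet markers stood at 508 CPM in Vcam1-positive and 326.3 CPM in Vcam1-negative cells of pool1, and at 3976 and 410.3 CPM on pool2, where 1 Vcam1-positive cell reached 145332 CPM. Of the 5 follicular dendritic cell markers in the files, 4 (Cr2, Fcer2a, Fcgr2b and Cxcl13) were at 0 in both classes of pool1 and in Vcam1-negative cells of pool2, while Vcam1-positive cells of pool2 held counts of Cr2 and Fcer2a. The other, Mfge8, was at 3562 CPM in Vcam1-positive and 4831 CPM in Vcam1-negative cells of pool1. On pool2 the 5 markers summed to 4421 and 3935 CPM. Cells with 3 or more markers of a contaminant list numbered 2 Vcam1-positive and 1 Vcam1-negative on each plate. Without them 87 features were at least 2-fold higher on both plates and 68 lower, of which 63 and 54 were among the 76 and 66.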

How the data were processed

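The submitters deposited raw read counts per gene and cell, per the labels, and their processing notes list STAR 2.4.1b, Subread 1.4.6-p2, FastQC 0.11.4 and the genome build mm10 (GRCm38). The annotation, and whether strand was used, is not given in the sources used here. Therefore overlapping and antisense genes cannot be told apart. Repeated rows (92 of 51826) were summed, and gene positions were read from GENCODE M21.

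Counts of all cells of a plate and class were added, scaled to CPM by the total (30215597 in Vcam1-positive and 27093679 in Vcam1-negative cells of pool1, 54534798 and 30009730 on pool2) and compared within a plate. A class at 0 was set to a floor of 3 counts. Ratios have exact Poisson and shares exact Clopper-Pearson intervals. A feature was measured at 20 CPM or more in either class on each plate. Thinning drew 100000 counts per cell with seed 1, and 1 cell was too shallow. No doublet caller was used, since cells were sorted into wells, and no column of the used file was left unmapped. The code that computes the ratios was checked on simulated counts. Genes were named by the rule given in the text, with at most 12 each way, leaving out unnamed gene models and ribosomal, mitochondrial, immunoglobulin and haemoglobin genes. The cells and the 28 gene and 12 marker lists were chosen with earlier results of these data known. Python 3.11.15, numpy 2.4.6, pandas 2.3.3, scipy 1.17.1 and matplotlib 3.10.9 were used.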

Additional observations from a re-analysis of the deposited data

How the results depend on the processing

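Against 76 higher and 66 lower features, equal weight per cell gave 68 and 71, of which 45 and 41 were shared, and thinning gave 70 and 71, with 41 and 37 shared. As percents of measured features, against 1.34% higher and 1.16% lower, cells in the shared range of totals gave 2.37% and 1.93%, with 40 and 32 features shared, and scaling by the total without the 20 highest features gave 2.502% and 1.64%. With the 11 left-out libraries the percents were 2.13% and 0.80%, with 44 and 32 shared. A minimum of 5 CPM gave 3.97% and 2.57%, and 50 CPM gave 0.385% and 0.231%, which are 10 and 6 features. With features measured and compared on 1 plate only, pool2 gave 10.7% and 9.64% of 7313 features. Pool1 gave 12.5% and 12.1% of 6163 features in the same way. The single-plate percents given earlier were of the 5680 features measured on both plates. Without the 3 further libraries that hold tumour counts, an alternative chosen after seeing the data, there were 76 and 67, with 71 and 61 shared. The cause of these shifts was not tested. Of the 14 named genes, equal weight lost Dpf2, Ldlrad3, Serpina3n, Birc6, Tor1b and Nqo2, and thinning lost Dpf2, Ldlrad3, Serpina3n, Birc6, Rpf1 and Nqo2. The shared range of totals lost Dpf2, Zfp638 and Rnf139, all cells under 10 CPM as the comparison lost Dpf2, Birc6 and Rpf1, and leaving out the deepest cells lost Zfp638, Ldlrad3, Rpf1 and Rnf139. A cut of 50 CPM for Vcam1 lost Rpf1 and Nqo2, the 11 libraries Pbxip1, Zfp638, Serpina3n, Rpf1 and Ephb4, leaving out marked cells Serpina3n and Birc6, and leaving out the 3 libraries Rpf1. Over these alternatives the mean log2 ratio of no named gene changed sign. The genes were named for ratios past 2-fold on both plates in these same cells, so this is no independent check. No paired analysis was possible because the results come from no test: the classes were compared within each plate, as ratios.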
